A study of Gallus gallus with 16 samples.

Results

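The comparison described here sets 8 male broiler chickens fed diets E and H (4 birds each) against 8 fed diets A and F (4 birds each), using all 16 birds of the series and all 20804 probe sets of the array. The members were chosen by the diet letter in the labels, and the contrast was the mean of diets E and H minus the mean of diets A and F. The jejunum, the part of the small intestine between duodenum and ileum, was sampled on day 21 and its RNA was hybridised to 1 Affymetrix array per bird. The study's title concerns plant essential oils and saponins in broiler feed, but the labels give diets only as letters. What diets E and H share, what diets A and F share, and which letter is the control are therefore unknown here, and the contrast is not read as the effect of 1 additive. All 4 groups share sex, age and tissue, and the sources used here do not give strain or housing.

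The jejunum is the main site where nutrients are taken up. Absorptive enterocytes arise from dividing crypt cells, migrate up the villus and carry peptidases and transporters for amino acids, sugars, lipids and minerals on their brush border. Goblet cells secrete mucus, enteroendocrine cells release hormones, and lymphocytes lie between and beneath the epithelial cells. Gene roles are given below as known mainly from mammals.

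Array medians lay between 5.94 and 6.10 on the log2 scale, and lower quartiles between 4.447 and 4.611, so levels near or under these may hold background. Of 9 enterocyte markers 8 were measured, and all 8 lay above the median of every array. Their mean level was 11.79 in birds on diets E and H and 11.68 in birds on diets A and F. All 5 goblet cell markers lay above the lower quartile of every array. LGR5 and OLFM4 (crypt), PECAM1 and CDH5 (endothelium), DPT and LUM (fibroblasts), ELAVL4 and UCHL1 (neurons) and SLC10A2, the bile acid transporter of the distal intestine, did not. FABP6, the other measured distal marker, did, with a mean level of 6.6 and a difference of 0.45. So did 3 of 5 crypt, 1 of 3 endothelial, 2 of 4 fibroblast and 1 of 3 neuron and glia markers. Of 5 pancreatic markers 3 were measured, with a mean of 5.78 to 6.13 on diets E and H and 5.81 to 6.06 on diets A and F. Of 5 smooth muscle markers 2 were measured, and these lay above the lower quartile of every array. Jejunum was measured as a tissue and not by cell type, so fewer cells of a type and less RNA per cell cannot be told apart.

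A single expression profile passed the threshold, with its 5 identical probe sets counted separately. Entered as 1 row it did not pass (limma adjusted p = 0.164). It rose in birds on diets E and H, and it belongs to probe sets that the platform annotation used here gives no gene symbol. In diet E birds its level was 6.30, 6.44, 6.17 and 6.14, and in diet H birds 6.42, 6.01, 5.77 and 5.80. In diet A birds it was 5.24, 5.23, 5.43 and 5.60, and in diet F birds 5.17, 5.32, 4.85 and 5.70. Every bird on diets E and H lay above every bird on diets A and F, the nearest being diet H replicate 3 and diet F replicate 4. The mean was 6.13 ± 0.26 on diets E and H and 5.32 ± 0.26 on diets A and F (SD, n = 8 each), a log2 difference of 0.81 (SE 0.125) or 1.76-fold, with a limma adjusted p of 0.038. All 5 called probe sets (15383721, 15383753, 15383785, 15383817 and 15383865) hold the same 16 values, so they are 1 measurement here and not 5 transcripts. They make 0.024% of the 20804 tested, and 1120 probe sets (5.38%) had an unadjusted p under 0.05, 521 of them higher (2.5%) and 599 lower (2.88%).

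Because the groups did not overlap, the profile necessarily lay higher in each of the 4 single comparisons that make up the contrast. The differences were 0.89 for diet E minus A, 0.74 for H minus F, 0.62 for H minus A and 1.004 for E minus F. None of these passed on its own (limma adjusted p of 0.364, 0.842, 0.219 and 0.147). An exact permutation test over the 12870 splits of 8 against 8 birds gave a two-sided p of 0.000155, the smallest it can give, and an adjusted p of 0.539 over all probe sets. The limma call was fragile. It was lost when identical probe sets entered as 1 (adjusted p = 0.164) and in 13 of the 16 fits that left out a bird (adjusted p 0.054 to 0.138). It was kept only without diet A replicate 4 (0.0479), diet F replicate 4 (0.0082) or diet H replicate 3 (0.0456), and the difference stayed between 0.74 and 0.89 in all 16. Numbers in the sample titles fall into a range up to 25 and a range over 25, and each range holds 2 birds per diet. The difference was 1.05 in the lower range and 0.58 in the upper, with no call in either and none with the range as a block (adjusted p = 0.0588).

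**Figure D1:**
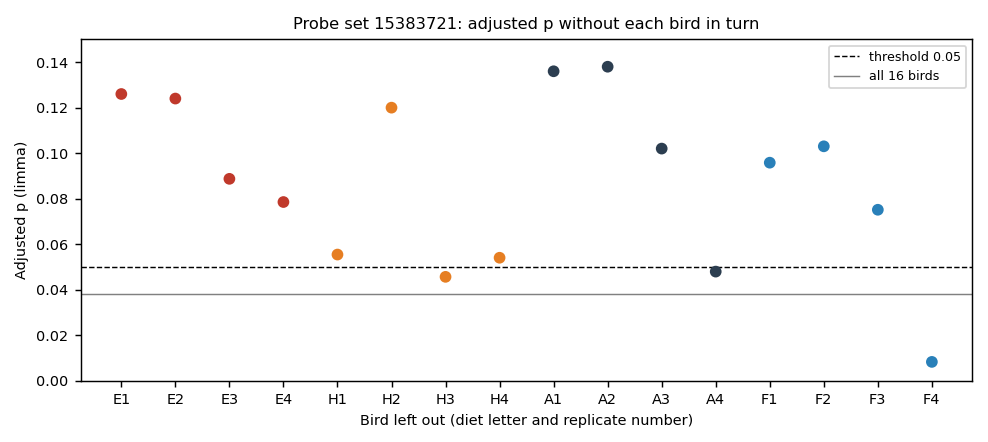
limma adjusted p of probe set 15383721 (vertical axis) after leaving out each of the 16 birds in turn (horizontal axis, diet letter and replicate number). The grey line is the value with all birds, 0.038, and the dashed line the threshold of 0.05; 3 of the 16 points lie under the threshold.

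The profiles next in p were also without a gene symbol. Probe set 15382903, which shares its values with 1 other probe set, had levels of 4.93, 5.16 and 5.77 (lowest, median and highest) on diets E and H, against 4.31, 4.64 and 4.95 on diets A and F. Its difference was 0.63 (SE 0.112, limma adjusted p = 0.128), and the groups touched only at their edges. Probe set 15536402 had 9.02, 9.63 and 9.72 on diets E and H, against 8.54, 8.85 and 9.39 on diets A and F, a difference of 0.63 (SE 0.131, limma adjusted p = 0.582). Besides the called profile, IRS4, an insulin receptor substrate, was the only probe set whose groups did not overlap, and it is named here after its values were seen. IRS4 had 7.07, 7.14 and 7.35 on diets E and H, against 6.71, 6.91 and 7.06 on diets A and F. Its difference of 0.24 (SE 0.071) had a limma adjusted p of 0.893. The exact permutation p of IRS4 was 0.000155, which any probe set without overlap gets here, and 0.539 after adjustment over all probe sets. In all, 6 probe sets (0.0288%) lay higher without overlap and none lay lower without overlap.

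**Figure D2:**
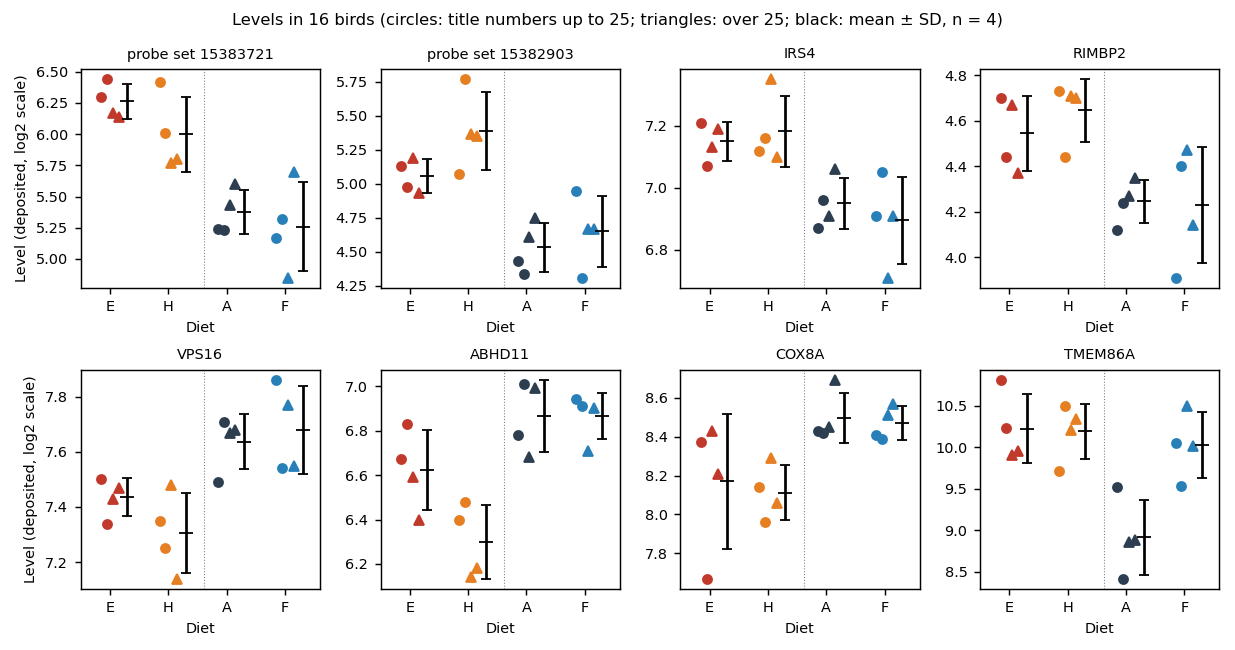
Level in each bird (vertical axis, deposited values on the log2 scale) by diet (horizontal axis, E and H left of the dotted line, A and F right of it) for 8 profiles, with circles for title numbers up to 25, triangles for those over 25, and black bars for the mean ± SD of 4 birds. Probe set 15383721 and IRS4 show no overlap across the dotted line. For TMEM86A diet A replicates 2, 3 and 4 lie lowest, and diet A replicate 1 (9.52) lies level with diet F replicate 2 (9.53).

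No probe set with a gene symbol passed the threshold, so the genes that follow are given as values. Among the 14 with the smallest p on the higher side (limma unadjusted p 0.000408 to 0.00323), EIF2AK3, the kinase PERK that slows translation under endoplasmic reticulum stress, had 8.16, 8.40 and 8.65 on diets E and H. On diets A and F it had 7.79, 8.08 and 8.32, a difference of 0.36 (SE 0.096, limma adjusted p = 0.893). All 8 birds on diets E and H lay above the median of the others, and the single comparisons were alike, from 0.34 to 0.38. NMNAT3, which makes NAD in mitochondria, had 6.70, 7.17 and 7.36 on diets E and H, against 6.14, 6.43 and 7.20 on diets A and F (difference 0.54, SE 0.153). FLVCR2, a membrane transporter, had 7.14, 7.51 and 7.89 on diets E and H, against 6.42, 7.05 and 7.49 on diets A and F (difference 0.49, SE 0.138). Both groups overlapped in these genes. CCNJL, a cyclin J-like gene, differed by 0.36 (SE 0.103).

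For PURG and TMEM86A the single comparisons inside the contrast had unlike values, and a test of their difference passed for PURG only. PURG, a purine-rich element binding protein, had 6.36, 6.83 and 7.19 on diets E and H, against 6.08, 6.50 and 6.83 on diets A and F. Its difference was 0.33 (SE 0.074, limma adjusted p = 0.849), made of 0.88 for diet H minus A and -0.22 for E minus F. Split the other way, PURG was higher in each comparison, by 0.25 for E minus A and 0.41 for H minus F. TMEM86A, a lysoplasmalogenase, had 9.72, 10.22 and 10.81 on diets E and H, against 8.42, 9.52 and 10.50 on diets A and F. Its difference of 0.74 (SE 0.185, limma adjusted p = 0.893) was made of 1.31 for diet E minus A and 0.17 for H minus F. Split the other way, TMEM86A had 1.27 for H minus A and 0.205 for E minus F. Neither pair differed past the threshold (limma adjusted p of 0.599 and 0.472). Diet A replicates 2, 3 and 4 lay lowest (8.42, 8.86 and 8.88), while diet A replicate 1 (9.52) was level with diet F replicate 2 (9.53).

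The other 8 genes on the higher side had low levels. In 7 of the 14 the mean on diets A and F was below every array's lower quartile. RIMBP2, which binds calcium channels at sites of vesicle release, had 4.37, 4.69 and 4.73 on diets E and H, against 3.91, 4.26 and 4.47 on diets A and F (difference 0.36, SE 0.094). PECAM1, an adhesion molecule of endothelium, had 4.33, 5.12 and 5.39 on diets E and H, against 4.33, 4.58 and 4.81 on diets A and F (difference 0.45, SE 0.122). Of 17 measured endothelial genes 14 lay higher, with a median of 0.03 (-0.04 without diet E replicate 2, 0.08 without diet E replicate 4), and PECAM1 stood at the top of its list. PLCL1, a phospholipase C-like protein without catalytic activity, differed by 0.38, the microRNA genes MIR128-1 and MIR1771 by 0.36 and 0.42, and the serpin SERPINB10B by 0.37. ANKRD31, an ankyrin repeat protein, differed by 0.28 and KCNG1, a modifying subunit of potassium channels, by 0.40.

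On the lower side the smallest p belonged to ABHD11, a mitochondrial hydrolase. Its level was 6.14, 6.44 and 6.83 on diets E and H, against 6.68, 6.91 and 7.01 on diets A and F. All 8 birds on diets E and H lay below the median of the others, with some overlap, and the difference was -0.41 (SE 0.087, limma adjusted p = 0.656). Once diet means were removed, the genes whose levels across the 16 birds were most like ABHD11 were NCLN (Pearson r 0.92), MTMR14 (0.90), TMED3 (0.90), PAK4 (0.89) and IAH1 (0.89), with differences in the contrast of -0.22, -0.37, -0.01, -0.12 and -0.26. These correlations rest on 16 arrays that share their processing and are a description only.

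The other 13 lower genes had limma unadjusted p up to 0.00473 and adjusted p of 0.893. VPS16, a subunit of the complexes that tether endosomes to lysosomes, had 7.14, 7.39 and 7.50 on diets E and H, against 7.49, 7.67 and 7.86 on diets A and F (difference -0.29, SE 0.076). The groups overlapped only at their edges. ADSL, adenylosuccinate lyase of purine synthesis, had 7.07, 7.45 and 7.74 on diets E and H, against 7.65, 7.82 and 8.31 on diets A and F (difference -0.38, SE 0.107). COX8A, a subunit of cytochrome c oxidase, had 7.67, 8.18 and 8.43 on diets E and H, against 8.39, 8.44 and 8.69 on diets A and F (difference -0.34, SE 0.104). In COX8A most birds on diets E and H lay below all birds on diets A and F. MRPS2, a protein of the small mitochondrial ribosomal subunit, differed by -0.39 (SE 0.114), with -0.64 for diet H minus F and -0.14 for diet E minus A.

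Among the remaining lower genes, GGA2, a clathrin adaptor of the Golgi, differed by -0.38, GLCE, the epimerase of heparan sulfate synthesis, by -0.30 and the glycosyltransferase B3GNT9 by -0.35. ARPC5L, a subunit of the actin-branching Arp2/3 complex, differed by -0.27, BRAT1, a partner of the DNA damage kinase ATM, by -0.26 and HMCES, which shields abasic sites in DNA, by -0.37. OAF differed by -0.35 and UBAP2L2, with a low mean, by -0.45. ITGB1BP3, a nicotinamide riboside kinase, differed by -0.55 (SE 0.163) on its brighter probe set and by -0.35 (SE 0.137) on the other. All 14 lower genes lay below 0 in each of the 4 single comparisons, as did 13.9% of all probe sets. On the higher side 13 of 14 lay above 0 in each, all but PURG, against 13.7% of all probe sets. These genes were picked by the same contrast, so the counts describe them and support nothing. None of the 28 separated the groups without overlap, and all 28 had the same sign in both title number ranges.

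Gene lists for functions of the intestine are described by counts and medians, without a test. Over all probe sets the median difference was 0.00 and 48.8% lay below 0. With 1 probe set per gene (11528 genes), 49.8% lay below 0 and 50.2% above, and 4.86% had an unadjusted p under 0.05, 2.62% lower and 2.24% higher. Of 39 lists with at least 5 measured genes, 20 had a median below 0 and 19 above, from -0.25 to 0.17. None of their members passed the threshold, and in all 39 the mean level per bird overlapped between the groups. Differences leaned with level. When probe sets were ranked by mean level into 10 bins, 56.6% lay below 0 in bin 10, the highest (median -0.02), and 38.7% in bin 2 (median 0.04).

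Ribosomal and respiratory genes lay lower together in birds on diets E and H. All 50 measured cytosolic ribosomal protein genes had a difference below 0, with a median of -0.20, and 11 had an unadjusted p under 0.05. The list's mean per bird was 9.48, 9.73 and 10.35 on diets E and H, against 9.78, 9.95 and 10.51 on diets A and F, and 5 of the 8 birds on diets E and H lay below all birds on diets A and F. The median was -0.50 for diet H minus A and 0.07 for diet E minus F, but -0.218 for E minus A and -0.205 for H minus F. RPL24, a protein of the large subunit, had 8.84, 9.16 and 9.79 on diets E and H, against 9.28, 9.46 and 10.15 on diets A and F (difference -0.35, SE 0.117, limma adjusted p = 0.893). RPL10A differed by -0.45 (SE 0.163), and RPS10 and RPS20 of the small subunit by -0.35 (SE 0.128) and -0.27 (SE 0.099).

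Mitochondrial ribosomal proteins, which translate the messages of mitochondrial DNA, lay lower in 57 of 60 genes, with a median of -0.14 and 13 at an unadjusted p under 0.05. Their mean per bird was 7.39, 7.62 and 7.76 on diets E and H, against 7.65, 7.73 and 7.87 on diets A and F. Of the 8 birds on diets E and H 6 lay below all birds on diets A and F. MRPS7 had 7.73, 8.05 and 8.23 on diets E and H, against 8.19, 8.24 and 8.28 on diets A and F (difference -0.21, SE 0.077). MRPL1 and MRPL57 of the large subunit differed by -0.29 (SE 0.093) and -0.25 (SE 0.086). Of 52 oxidative phosphorylation genes 51 lay lower, with a median of -0.13 and 7 at an unadjusted p under 0.05. The mean per bird of this list was 9.03, 9.35 and 9.54 on diets E and H, against 9.35, 9.46 and 9.63 on diets A and F. Only 3 of the 8 birds on diets E and H lay below all birds on diets A and F. The complex I subunits NDUFC2 and NDUFB8 differed by -0.35 (SE 0.119) and -0.24 (SE 0.089), and UQCRHL of complex III by -0.40 (SE 0.150). For both lists the diet E minus A and H minus F medians were alike (-0.14 and -0.14 for the mitochondrial ribosome, -0.13 and -0.16 for respiration), while those of diet H minus A and E minus F were not (-0.22 and -0.03 for the mitochondrial ribosome, -0.21 and -0.07 for respiration).

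**Figure D3:**
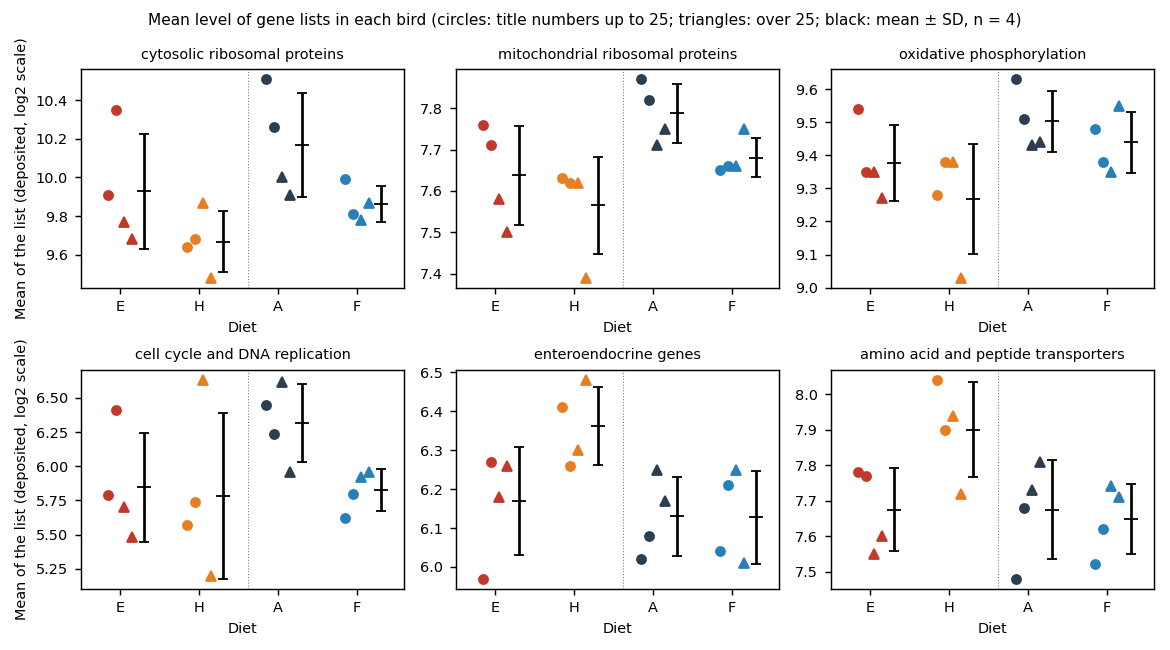
Mean level of 6 gene lists in each bird (vertical axis, log2 scale) by diet (horizontal axis, E and H left of the dotted line, A and F right of it), with circles for title numbers up to 25, triangles for those over 25, and black bars for the mean ± SD of 4 birds. The groups overlap in all 6 lists; cell cycle means spread most within diets E and H, from 5.20 to 6.63.

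Cell cycle genes had the lowest median of all lists, -0.25, with 62 of 66 below 0, yet 2 had an unadjusted p under 0.05. The list's mean per bird was 5.20, 5.72 and 6.63 on diets E and H, against 5.62, 5.96 and 6.62 on diets A and F. Of the 8 birds on diets E and H 3 lay below all birds on diets A and F, and the highest birds of both groups were alike. The median was -0.49 for diet E minus A and -0.05 for H minus F, and -0.50 for H minus A and 0.02 for E minus F. By diet the list's mean was 6.31 in A, against 5.84 in E, 5.82 in F and 5.78 in H. The median of the whole contrast moved to -0.42 without diet H replicate 3 and to -0.16 without diet H replicate 4. MCM10, which starts replication forks, had 4.81, 5.11 and 5.47 on diets E and H, against 4.99, 5.53 and 5.65 on diets A and F (difference -0.30, SE 0.115). ESPL1, the separase that splits sister chromatids, differed by -0.20 (-0.115 on its other probe set), CCNE2, an S phase cyclin, by -0.36 and MCM5, a helicase subunit, by -0.42. The probe set used for ESPL1 had a mean of 10.95 on diets E and H and 11.15 on diets A and F. The other probe set of ESPL1 was far dimmer, with a mean of 5.72 over all birds. In the crypt stem and progenitor list 19 of 24 genes lay lower, with a median of -0.09 (-0.15 without diet E replicate 2 and -0.03 without diet E replicate 4). OLFM4, a crypt marker, ranged from 4.52 to 10.94 on diets E and H and from 4.48 to 10.65 on diets A and F, and its difference was -0.20 (SE 0.782). It joined single comparisons of opposite sign, -1.56 for diet E minus A and 1.16 for H minus F. Split the other way, OLFM4 had -2.79 for H minus A and 2.39 for E minus F, and none of these passed.

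T and NK cell genes mostly lay lower, and interferon genes had opposite signs in the title number ranges. Of 28 T and NK cell genes 26 lay lower, with a median of -0.15, which was -0.26 without diet H replicate 3 and -0.07 without diet H replicate 4. CD8A, a coreceptor of cytotoxic T cells, had 7.10, 8.27 and 8.58 on diets E and H, against 7.88, 8.75 and 9.40 on diets A and F (difference -0.55, SE 0.218). Its other, dimmer probe set differed by 0.21 (SE 0.110), so the gene has no settled direction. The T cell receptor kinase ZAP70 differed by -0.45 (SE 0.191), and the receptor chains CD247 and CD3E by -0.34 (SE 0.177) and -0.25 (SE 0.132). The interferon response list had 23 of 28 genes lower and a median of -0.11, but the median was 0.29 in the lower title number range and -0.62 in the upper. It was -0.24 without diet F replicate 1 and -0.04 without diet H replicate 4. IFI6, OASL and IRF8, of the same response, also lay higher in the lower range and lower in the upper. B2M, the light chain of MHC class I, differed by 0.08 (SE 0.065).

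Sterol synthesis genes lay lower in 16 of 17 cases, with a median of -0.11. The list's median was -0.31 for diet H minus F and 0.03 for diet E minus A, and -0.18 for H minus A and -0.07 for E minus F. LSS, lanosterol synthase, had 8.47, 8.79 and 9.74 on diets E and H, against 8.86, 9.27 and 9.48 on diets A and F (difference -0.33, SE 0.144). NSDHL, a later enzyme of the pathway, differed by -0.27 (SE 0.122), the transcription factor SREBF2 by -0.16 and squalene synthase FDFT1 by -0.35 (-0.05 on its other probe set). All 9 fatty acid synthesis genes had differences below 0, with a median of -0.18, or -0.09 without diet E replicate 4.

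**Figure D4:**
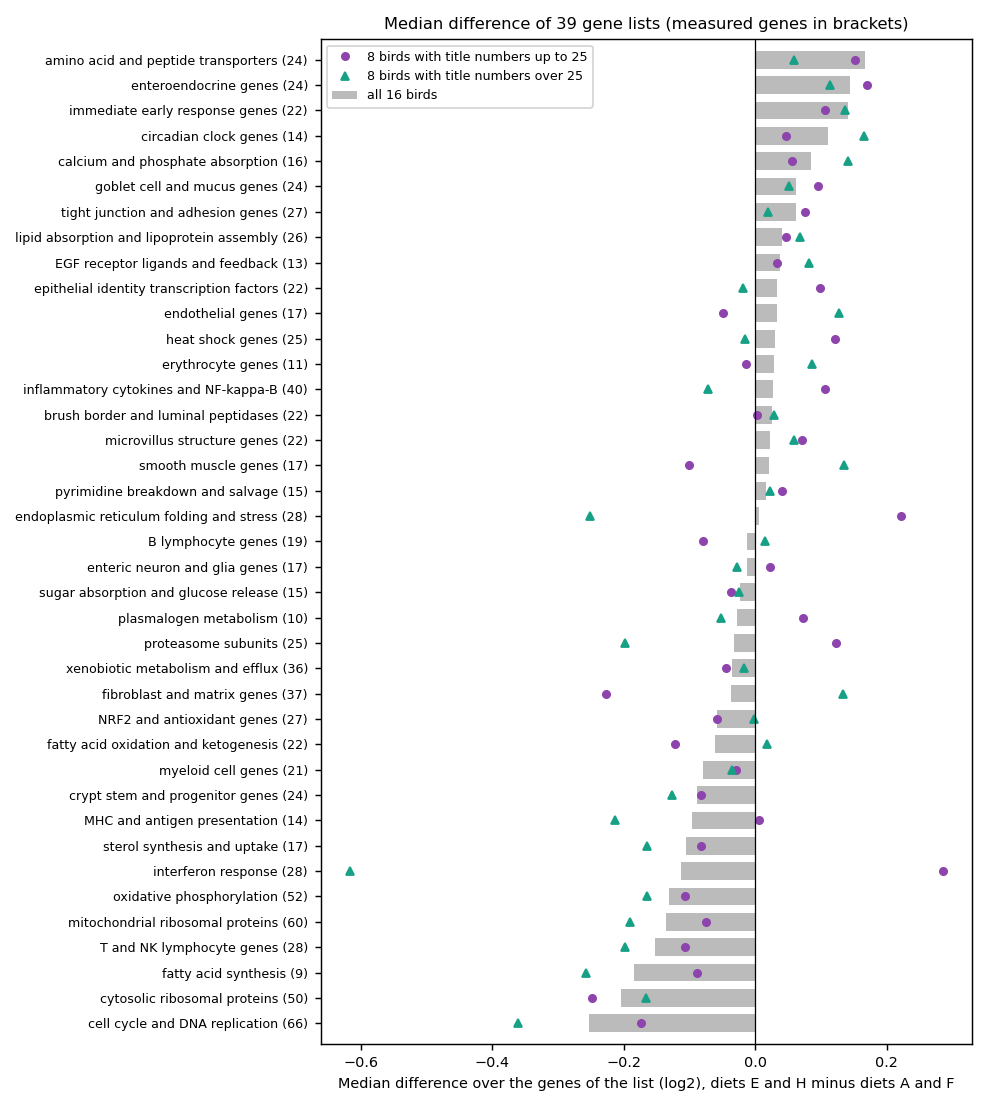
Median log2 difference, diets E and H minus diets A and F, over the measured genes of each of 39 lists (number in brackets). Grey bars use all 16 birds, purple circles the 8 birds with title numbers up to 25, and green triangles the 8 over 25; medians run from -0.25 for cell cycle to 0.17 for amino acid and peptide transporters, and interferon genes differ in sign between the ranges (0.29 and -0.62).

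Amino acid and peptide transporters had the highest median of all lists, 0.17, with 18 of 24 genes higher and 2 at an unadjusted p under 0.05. The median was 0.25 for diet H minus F and 0.25 for H minus A, but 0.06 for E minus A and 0.06 for E minus F. By title number it was 0.152 in the lower range and 0.059 in the upper. SLC15A1, the brush border carrier of small peptides, had 11.20, 11.48 and 11.77 on diets E and H, against 10.33, 11.13 and 11.66 on diets A and F (difference 0.41, SE 0.149, limma adjusted p = 0.893). SLC6A19, the brush border carrier of neutral amino acids, had 10.75, 11.09 and 11.56 on diets E and H, against 9.89, 10.81 and 11.24 on diets A and F (difference 0.46, SE 0.164). In both genes the lowest birds were on diets A and F and the ranges overlapped widely. SLC7A6, a cationic amino acid exchanger subunit, differed by 0.33 (SE 0.164) and the lysosomal amino acid sensor SLC38A9 by 0.22 (SE 0.108). In the lower and upper title number ranges SLC15A1 had 0.63 and 0.18, SLC6A19 0.64 and 0.28, and SLC7A6 0.38 and 0.29. SLC38A9 went the other way, with 0.155 and 0.294. The sodium-glucose carrier SLC5A1 had 12.23, 12.60 and 12.89 on diets E and H, against 12.30, 12.44 and 12.68 on diets A and F (difference 0.11, SE 0.100), and the 15 sugar genes had a median of -0.02 (-0.06 without diet E replicate 4, 0.02 without diet E replicate 2).

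Some single digestive genes lay higher while their lists stayed near 0. Peptidases had 14 of 22 genes higher and a median of 0.03, which was 0.12 without diet E replicate 2 and 0.01 without diet E replicate 1. The subunits of the brush border protease meprin, MEP1A and MEP1B, differed by 0.62 (SE 0.281) and 0.46 (SE 0.201), ACE by 0.30 (SE 0.141) and carboxypeptidase CPM by -0.20. For ACE the mean was 11.15 in diet A, against 11.78 in E, 11.65 in F and 11.63 in H. Its single comparisons were 0.63 for E minus A and -0.02 for H minus F. MEP1A had 10.26, 11.76 and 12.62 on diets E and H, against 10.32, 10.96 and 11.92 on diets A and F, with a difference of 0.07 in the lower title number range and 1.18 in the upper. Lipid absorption genes had 18 of 26 higher and a median of 0.04 (0.02 without diet A replicate 1, 0.09 without diet E replicate 2). CD36, a fatty acid receptor, had 8.27, 8.86 and 10.22 on diets E and H, against 7.57, 8.12 and 9.41 on diets A and F (difference 0.78, SE 0.283). All 8 birds on diets E and H lay above the median of the others. BCO1, which cleaves beta-carotene, differed by 0.55 (SE 0.236), the lipoprotein receptor SCARB1 by 0.34 (SE 0.228) and the sterol exporter subunit ABCG8 by 0.23 (SE 0.159, or 0.13 without diet A replicate 1). SCARB1 had 0.80 for diet E minus A and -0.12 for H minus F.

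In the calcium and phosphate list 11 of 16 genes lay higher, with a median of 0.09 (0.05 without diet F replicate 3, 0.13 without diet F replicate 1). CA4, a membrane carbonic anhydrase, had 4.80, 5.80 and 6.59 on diets E and H, against 4.64, 4.99 and 5.38 on diets A and F (difference 0.71, SE 0.217, limma adjusted p = 0.893). Its difference was 1.15 in the lower title number range and 0.26 in the upper. The phosphate carrier SLC34A2 differed by 0.33 (SE 0.206), CYP24A1, which breaks down vitamin D hormone, by 0.46 (SE 0.264), and CDH17, an intestinal cadherin, by 0.16 (SE 0.088).

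Enteroendocrine genes had a median of 0.14. With diet H the single comparisons gave 0.23 against F and 0.22 against A. With diet E they gave 0.09 against A and 0.08 against F. Of 24 genes 20 leaned higher, with RIMBP2 at the top by p. DDC, the decarboxylase that makes serotonin, went the other way, with 7.02, 7.82 and 8.28 on diets E and H, against 7.78, 8.40 and 9.09 on diets A and F (difference -0.62, SE 0.213). The hormone genes NTS (neurotensin) and GHRL (ghrelin) differed by 0.37 (SE 0.166) and 0.38 (SE 0.134), and GHRL had levels of 3.12 to 4.40 over all birds, below every array's lower quartile. Goblet cell genes had 15 of 24 higher and a median of 0.06. FCGBP, a mucus protein, had 12.15, 12.60 and 13.21 on diets E and H, against 11.48, 12.26 and 12.66 on diets A and F (difference 0.35, SE 0.150). The mucin glycosylation enzymes ST6GALNAC1 and C1GALT1 differed by 0.48 (SE 0.197) and -0.29 (SE 0.134), and CLCA2 by 0.20. Means on diets E and H and on diets A and F were low for ST6GALNAC1 (4.56 and 4.08) and CLCA2 (4.40 and 4.20), near or under the lower quartiles. ST6GALNAC1 differed by -0.065 in the lower title number range and 1.02 in the upper. For diet E minus A and H minus F, C1GALT1 had -0.75 and 0.17, and CLCA2 0.50 and -0.10. Tight junction genes had 17 of 27 higher and a median of 0.06 (0.03 without diet H replicate 2, 0.09 without diet H replicate 3). CLDN10 and CLDN2, which form ion pores, differed by 0.38 (SE 0.164) and -0.38 (SE 0.177), and MARVELD3 by -0.18 (SE 0.078).

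Of 22 immediate early genes 16 lay higher, with a median of 0.14. The list's median was 0.54 for diet H minus A and -0.13 for E minus F, and 0.20 for E minus A and 0.02 for H minus F. CSRNP1, a nuclear protein of that response, had 7.12, 7.37 and 8.10 on diets E and H, against 6.51, 7.06 and 7.63 on diets A and F (difference 0.35, SE 0.144). The transcription factors FOSL2 and KLF6 differed by 0.25 (SE 0.130) and 0.41 (SE 0.222). ERRFI1, which damps signalling by the EGF receptor, had 8.95, 9.49 and 10.02 on diets E and H, against 8.36, 9.17 and 9.78 on diets A and F (difference 0.37, SE 0.139). It was made of 1.06 for diet H minus A and -0.31 for E minus F, or of 0.31 for E minus A and 0.43 for H minus F. The receptor ligands AREG and EREG differed by 0.75 (SE 0.353) and 0.24 (SE 0.153). AREG had 1.34 for diet E minus A and 0.15 for H minus F. The receptor EGFR differed by 0.17 (SE 0.114), or 0.078 without diet H replicate 4. The list of 13 had a median of 0.04 (-0.02 without diet F replicate 4, 0.08 without diet F replicate 2). Circadian genes had 11 of 14 higher and a median of 0.11 (0.04 without diet H replicate 4), with the transcription factor TEF at 0.29 (SE 0.119), NFIL3 at 0.57 (SE 0.418), CLOCK at 0.18 (SE 0.213; 0.066 without diet E replicate 4) and RORB, at a low level, at 0.12 (SE 0.113). In the lower and upper title number ranges the circadian median was 0.047 and 0.165. NFIL3 had 0.057 and 1.09, TEF 0.114 and 0.47, and CLOCK -0.031 and 0.40, while RORB went the other way with 0.168 and 0.079. The sources used here do not give sampling hours. In the endoplasmic reticulum list, whose median was 0.01 (-0.09 without diet E replicate 2, 0.06 without diet E replicate 4), EIF2AK3 was followed by DNAJC3, an inhibitor of that kinase, at 0.16 (SE 0.064), the chaperone DNAJB9 at 0.39 (SE 0.216) and SEL1L of protein disposal at 0.30 (SE 0.188).

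The 16 birds allow 2 further balanced contrasts of 8 against 8, and these tested whether the single comparisons inside the contrast differed from each other. Diet H minus A differed from diet E minus F for 1 probe set (0.00481%), PURG, with a limma adjusted p of 0.0346, and 1800 (8.65%) had an unadjusted p under 0.05. Nothing was called when the title number entered as a linear covariate (smallest limma adjusted p 0.107), with adjacent title numbers as a random block (0.111), or in 14 of the 16 fits that left out a bird (0.0563 to 0.152). A call remained only without diet F replicate 4 (1 probe set, 0.049) or diet A replicate 3 (3 probe sets, 0.0167). PURG was 7.12 ± 0.05 in diet H and 6.24 ± 0.15 in diet A, against 6.49 ± 0.12 in diet E and 6.72 ± 0.12 in diet F (SD, n = 4 each). The genes next in p were ERRFI1, TOR1B, an ATPase of the endoplasmic reticulum, and EP300, a histone acetyltransferase, whose own contrast differences were 0.37, 0.08 and 0.03. Diet E minus A differed from diet H minus F for 0 probe sets (limma, smallest adjusted p 0.599), with 1605 (7.71%) at an unadjusted p under 0.05. The smallest p were those of DPYS, dihydropyrimidinase (0.72 for E minus A, -0.27 for H minus F), LOC420748 (0.53 and -0.12), G6PC, glucose-6-phosphatase (0.27 and -0.47), and CINP, a CDK2-interacting protein (-0.32 and 0.37).

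Of the single comparisons, limma called 0 probe sets for diet E minus A, H minus F and E minus F and 1, PURG, for H minus A, with 1605 (7.71%), 1096 (5.27%), 614 (2.95%) and 2398 (11.5%) at an unadjusted p under 0.05. Blocking on the title number range, the count for H minus A was 111, 55 higher and 56 lower, and without diet H replicate 2 it was 0 (limma adjusted p = 0.0563). Across the 20804 probe sets, diet E minus A and diet H minus F, which share no birds, correlated with a Pearson r of -0.01 (Spearman -0.06), and 46% had the same sign. For diet H minus A and diet E minus F, r was -0.14 (Spearman -0.13). Probe sets are not independent replicates, and these values describe how little the single comparisons resembled each other.

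**Figure D5:**
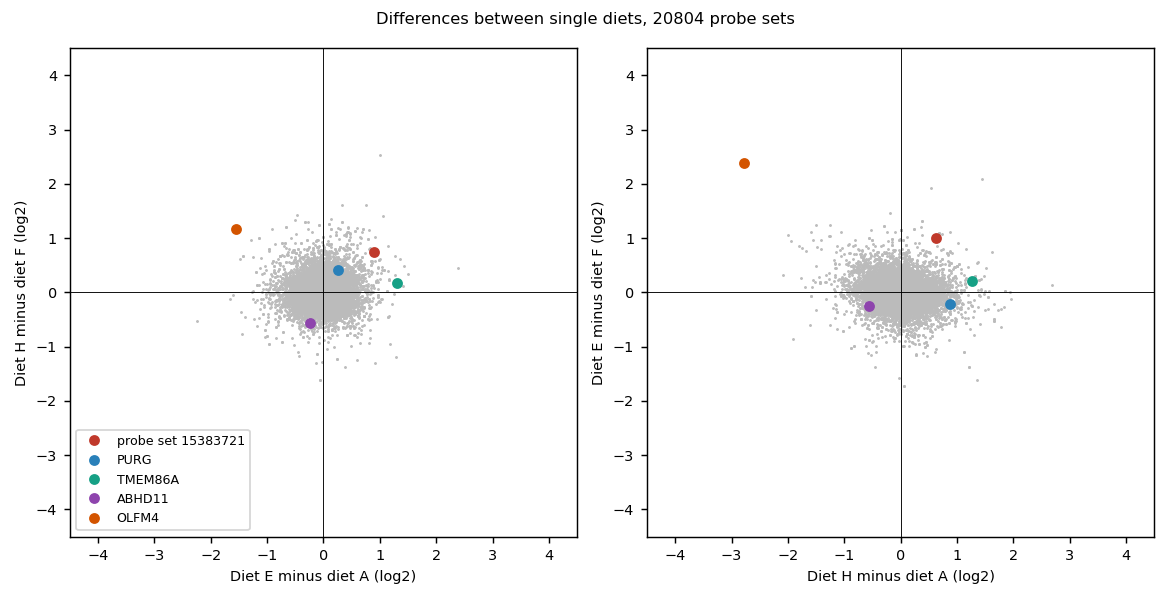
Log2 differences of 20804 probe sets (grey) between single diets: diet H minus F against E minus A on the left, and diet E minus F against H minus A on the right, the pairs in each panel sharing no birds. Probe set 15383721, whose groups did not overlap, lies above 0 on all 4 axes, and ABHD11, picked by the same contrast, below 0 on all 4. PURG lies below 0 for E minus F (-0.22).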

How the data were processed

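Jejunal RNA of 16 birds was hybridised to 1-colour arrays. The deposited values of the series table (0.79 to 14.48) were read as log2 intensities; GCOS 1.1.1 is named per the submitters' processing notes, and the sources used here do not give the summarization, normalization or log base. Genes were named from GEO's platform annotation, which can be old: 12300 probe sets had 1 symbol, 256 several and 8248 none. Identical values join 1644 probe sets in 749 sets, leaving 19909 distinct profiles.

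R 4.3.3 with limma 3.58.1 fitted a mean per diet to all arrays (lmFit, eBayes), with Benjamini-Hochberg adjustment over 20804 probe sets and a threshold of 0.05. The procedure was tested on simulated data. Replicates are separate birds, and their number limits the precision. Whether birds shared a pen is not stated in the labels. Figures used Python 3.11.15 and matplotlib 3.10.9.

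A gene was read from its probe set with the highest mean. Named were the 14 smallest p per direction, up to 4 members of each of 18 described lists, 4 per difference between single comparisons, the 5 genes most like the leading one and PURG, TMEM86A, ERRFI1, SLC5A1, SLC15A1, SLC6A19 and OLFM4. The members and the 40 lists were chosen with earlier results of these data known, and the 18 were picked after their values were seen. The list of the Pur family had 1 measured gene, PURG. Alternatives were median centring, quantile normalization, a filter on the lowest 25% of probe sets, distinct profiles, 2 arms, trend with robust shrinkage, array weights, 4 uses of the title number and leaving out each bird.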

Additional observations from a re-analysis of the deposited data

Results flagged for a closer look

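In 580 groups of 4 birds on 1 diet (145 genes, probe sets and list means), 35 held a bird far from the other 3 relative to the range. By chance about 1 group in 20 would, and the count is near that rate. List means hold genes that are also counted alone, and many items were picked by the contrast. The flags below therefore describe single values and are not evidence about a bird.

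Diet H replicate 4 was flagged most often, in items that are not independent of each other. It lay low in NDUFC2 (7.57; others 8.04 to 8.13), CD8A (7.10; 8.18 to 8.29), CD247 (7.19; 8.12 to 8.30) and the mean of mitochondrial ribosomal proteins (7.39; 7.62 to 7.63). It lay high in CDH17 (12.39; 12.08 to 12.09), SLC34A2 (11.78; 10.68 to 10.76), CLCA2 (4.61; 4.13 to 4.20) and the mean of peptidases (9.57; 9.30 to 9.34). In other diet H birds, replicate 2 lay low in PLCL1 (4.36), RIMBP2 (4.44) and NTS (6.99). Replicate 3 lay low in NMNAT3 (6.77) and high in OLFM4 (9.73; others 5.95 to 6.45), NSDHL (9.36) and the endothelial mean (5.62).

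On diet E, replicate 1 lay high in UBAP2L2 (3.03), FDFT1 (10.79; others 9.48 to 9.70) and the sterol mean (9.89). Replicate 2 lay low in the sugar absorption mean (7.99; others 8.44 to 8.47) and high in the T and NK cell mean (7.30) and the heat shock mean (7.49).

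On diet A, replicate 1 lay high in HMCES (7.50) and low in OASL (9.98; others 11.06 to 11.18). Replicate 3 lay high in PECAM1 (4.78) and low in the antioxidant mean (8.17), and replicate 4 lay high in COX8A (8.69) and EREG (9.49) and low in MCM10 (4.99). On diet F, replicate 1 lay high in MARVELD3 (7.26) and the smooth muscle mean (6.02), and replicate 2 low in the circadian mean (7.09). Replicate 3 lay low in ABHD11 (6.71) and GHRL (3.20), and replicate 4 low in ZAP70 (7.96) and high in the mitochondrial ribosomal mean (7.75).

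PURG differed between single comparisons, with 0.88 for diet H minus A and -0.22 for diet E minus F (limma adjusted p of the difference 0.0346). No call was left in 14 of the 16 fits without 1 bird.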

How the results depend on the processing

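The count of 5 called probe sets stayed at 5 under quantile normalization, median centring, leaving out low probe sets, 2 arms, trend with robust shrinkage and array weights. It was 0 with 1 row per distinct profile (adjusted p of the profile 0.164), the title number range as a block (0.0588), the title number as a linear covariate (0.0555), a random block of birds with adjacent title numbers (0.132, within-block correlation 0.173), and the lower (0.248) or upper range alone (smallest adjusted p 0.447). It ranged from 0 to 5 without 1 bird. Single ranges and left-out birds hold fewer samples, and the setting with 1 row per distinct profile counts the 5 identical probe sets once. For the other settings the cause was not tested. At an unadjusted p under 0.05 limma had 715 to 1857 probe sets in those 6 settings. By exact permutation 0 passed after adjustment and 989 had an unadjusted p under 0.05.

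For the difference between diet H minus A and diet E minus F, the count of 1 was 2 with the range block and 0 with the linear covariate, the random block and either range, and 0 to 3 without 1 bird. For diet E minus A against H minus F it was 0 to 1 without 1 bird. For diet H minus A the count of 1 was 111 with the range block and 0 in either range, and 0 to 2 without 1 bird. Without 1 bird it was 0 to 1 for E minus A, 0 to 0 for H minus F and 0 to 10 for E minus F (10 without diet H replicate 1).

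In the lower and upper range, list medians were 0.12 and -0.20 for proteasome subunits, 0.29 and -0.62 for interferon genes, and 0.22 and -0.25 for endoplasmic reticulum genes; the remaining 813 of 819 list values stayed within the spread between birds, though 61 in 19 lists changed sign. Of 3067 gene values 14 reversed. In the lower range these were OLFM4 (0.42), IFI6 (0.096), OASL (0.29), IRF8 (0.28), ST6GALNAC1 (-0.065), CLOCK (-0.031; -0.018 with the linear covariate) and TOR1B (-0.035), and in the upper range EREG (-0.030) and EP300 (-0.044; -0.036 on the probe set with the smallest p). The dimmer probe set of CD8A, which no setting used, also had the opposite sign (0.21). Without 1 bird, OLFM4 ranged from -0.63 (diet H replicate 3) to 0.44 (diet E replicate 4) and CINP from -0.013 (diet E replicate 3) to 0.060 (diet H replicate 4), with -0.009 without diet H replicate 1. Leaving out 1 bird moved 18 of the 106 named items by over 1.5 times, among them SLC34A2 (0.20), CLDN2 (-0.23), CD247 (-0.21), OASL (-0.24) and IRF8 (-0.11), each without diet H replicate 4. The cause of these reversals was not tested. No paired analysis was possible because the labels give the birds no replicate numbers shared between diets; the range block above compares diets within the title number ranges. Levels near the lower quartile limit what low genes such as GHRL, RIMBP2 and UBAP2L2 can show.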

Other observations

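Lists not described above had medians from -0.10 to 0.03, a span in which some lists described above also lay. None of their genes passed the threshold. The lowest and highest median after leaving out 1 bird follow each median. Lower lay 17 of 22 fatty acid oxidation genes (median -0.06; -0.10 to -0.01), 21 of 36 xenobiotic genes (-0.04; -0.07 to -0.004) and 16 of 27 antioxidant genes (-0.06; -0.09 to -0.03). Among immune lists, 15 of 21 myeloid genes (-0.08; -0.17 to -0.008) and 11 of 14 MHC and antigen presentation genes (-0.10; -0.14 to -0.06) lay lower, and 10 of 19 B lymphocyte genes did (-0.01; -0.11 to 0.04). Inflammatory cytokine and NF-kappa-B genes lay higher in 23 of 40 cases (0.03; -0.008 to 0.07).

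Microvillus genes lay higher in 12 of 22 cases (0.02; -0.004 to 0.08), epithelial transcription factors in 15 of 22 (0.03; 0.003 to 0.06) and smooth muscle genes in 10 of 17 (0.02; -0.01 to 0.09). So did heat shock genes in 15 of 25 (0.03; 0.008 to 0.06), erythrocyte genes in 6 of 11 (0.03; -0.03 to 0.07) and pyrimidine genes in 9 of 15 (0.02; -0.02 to 0.03). Fibroblast and matrix genes lay lower in 26 of 37 cases (-0.04; -0.20 without diet E replicate 2 to 0.09 without diet F replicate 1), with -0.23 in the lower and 0.13 in the upper title number range. Enteric neuron and glia genes lay lower in 9 of 17 cases (-0.01; -0.03 to 0.02), plasmalogen genes in 5 of 10 (-0.03; -0.06 to 0.03) and proteasome subunits in 17 of 25 (-0.03; -0.06 to -0.005).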
